A study of Mus musculus with 6 samples.

Results

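The genes described here are 10 transcription factor and early response genes of the mouse, taken by symbol from the 23718 genes listed in the deposited table. They are Fos, Fosb and Fosl2 of the FOS family, Jun, Junb and Jund of the JUN family, and the early response genes Egr1, Egr3, Atf3 and Ier2. All 10 were listed once each. They were measured by RNA sequencing of tissue cut with a laser from the incisor, a tooth that keeps growing in the mouse. The 3 mesenchymal stem cell (MSC) libraries came from Gli1-CreER;tdT mice and the 3 transit amplifying cell (TAC) libraries from Axin2-CreER;tdT mice. All mice were 1 month old, received tamoxifen 1 day earlier and carried a Cre-dependent tdTomato reporter. The labels give C57BL/6 as the strain, the methods of the study a mixed background, and animals of either sex were used. Each driver marks cells in which its own gene was active at the time of tamoxifen, so the driver allele and the captured region cannot be told apart. No library came from mice without tamoxifen or without a Cre driver.

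AP-1 is a dimer of basic leucine zipper (bZIP) proteins, typically a FOS protein with a JUN protein or a pair of JUN proteins, which binds short DNA sites and activates transcription. Many of its genes are immediate early genes, which are transcribed within minutes of a growth factor, stretch or injury signal without new protein synthesis, from messages that are short lived. In mesenchyme and bone, AP-1 proteins are known for roles in proliferation and in the differentiation of osteoblasts and osteoclasts. Handling of tissue is also known to induce them.

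Promoter sequence bears on these genes because their rapid transcription depends on short sites near the start. The set of RefSeq promoters used (mouse build GRCm38.p6) held a start for 7 of the 10 members, and none for Egr1, Egr3 or Ier2. The 250 bases before the start are shown for Fos, Fosb, Jun and Junb, as the members whose early induction is best known in each family. Capitals mark matches to the core of the cyclic AMP response element, TGACG or CGTCA, to the AP-1 type sites of the Jun promoter, TGACATCA and TTACCTCA, to an EGR family site, GCGGGGGCG, and to a TATA box, TATAAA. Both strands were searched, as for the AP-1 site, TGACTCA or TGAGTCA, and the CArG box bound by serum response factor. Each sequence runs 5′ to 3′ on the strand of its gene.
Fos, chr12:85473640-85473889, plus strand: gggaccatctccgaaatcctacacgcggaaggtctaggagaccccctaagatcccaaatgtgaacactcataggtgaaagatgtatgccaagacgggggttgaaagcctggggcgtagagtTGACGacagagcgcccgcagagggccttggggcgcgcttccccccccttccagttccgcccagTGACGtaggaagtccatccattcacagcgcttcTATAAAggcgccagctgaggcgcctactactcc
Fosb, chr7:19310046-19310295, minus strand: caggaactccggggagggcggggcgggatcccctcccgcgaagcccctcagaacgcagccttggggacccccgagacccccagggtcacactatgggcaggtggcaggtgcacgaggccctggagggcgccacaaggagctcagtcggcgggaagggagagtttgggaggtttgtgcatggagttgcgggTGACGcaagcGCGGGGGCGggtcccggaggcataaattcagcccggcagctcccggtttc
Jun, chr4:95052223-95052472, minus strand: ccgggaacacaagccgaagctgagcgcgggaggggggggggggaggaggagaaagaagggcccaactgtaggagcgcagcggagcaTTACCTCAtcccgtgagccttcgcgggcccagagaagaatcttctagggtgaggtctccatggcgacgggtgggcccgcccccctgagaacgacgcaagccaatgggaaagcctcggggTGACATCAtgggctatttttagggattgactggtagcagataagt
Junb, chr8:84978749-84978998, minus strand: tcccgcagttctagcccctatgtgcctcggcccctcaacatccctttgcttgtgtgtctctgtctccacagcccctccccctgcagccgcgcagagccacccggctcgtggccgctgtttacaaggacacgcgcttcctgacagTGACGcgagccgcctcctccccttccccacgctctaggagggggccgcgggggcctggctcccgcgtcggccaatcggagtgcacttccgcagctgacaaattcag

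The Fos window held the response element core 129 and 66 bases before the start and the TATA box 33 bases before it. The Fosb window held the core 60 bases and the EGR site 50 bases before the start. In the Jun window TTACCTCA began 164 bases and TGACATCA 45 bases before the start, and in the Junb window the core began 106 bases before it. Of all 32851 windows of this length, 17.8% held the response element core, 2.57% the EGR site, 2.93% TGACATCA or its complement, 0.728% TTACCTCA or its complement and 12.4% the TATA box on either strand. The AP-1 site was in 4.46% and the CArG box in 1.47% of all windows, and neither was found in the 4 shown. Sequence farther upstream than these windows was not searched. The result therefore does not show that the promoters of Fos, Fosb, Jun or Junb lack an AP-1 site or a CArG box. The matches listed describe letters in a window, and no binding was measured.

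The 6 libraries held 20203159 to 108156380 estimated reads, a number recovered from the table as described for the processing. Replicate 3 of each group stood apart from replicates 1 and 2. Mitochondrial ribosomal RNA took 8.28% to 9.07% of estimated reads in replicates 1 and 2 and 0.112% to 0.236% in replicate 3, and 43.1% of listed genes had no read in MSC replicate 3. For this reason each member is given library by library, and replicates 1 and 2 and replicate 3 are called the library sets. What the sets differ in is not stated by the labels. Of the genes that name the groups, Gli1 was 256, 245 and 422 in MSC and 153, 141 and 396 in TAC. Axin2 ranged from 12.0 to 58.3 in MSC and from 34.1 to 63.9 in TAC, and the proliferation marker Mki67 was 137, 130 and 41.5 in MSC and 593, 630 and 122 in TAC. For all 3 genes the groups overlapped, while within each pair of the same number Gli1 was higher in MSC and Mki67 in TAC. Values throughout are normalized counts, in which a read was worth the same for every gene of a library, and the values of a group are listed in the order of replicates 1, 2 and 3.

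**Figure D1:**
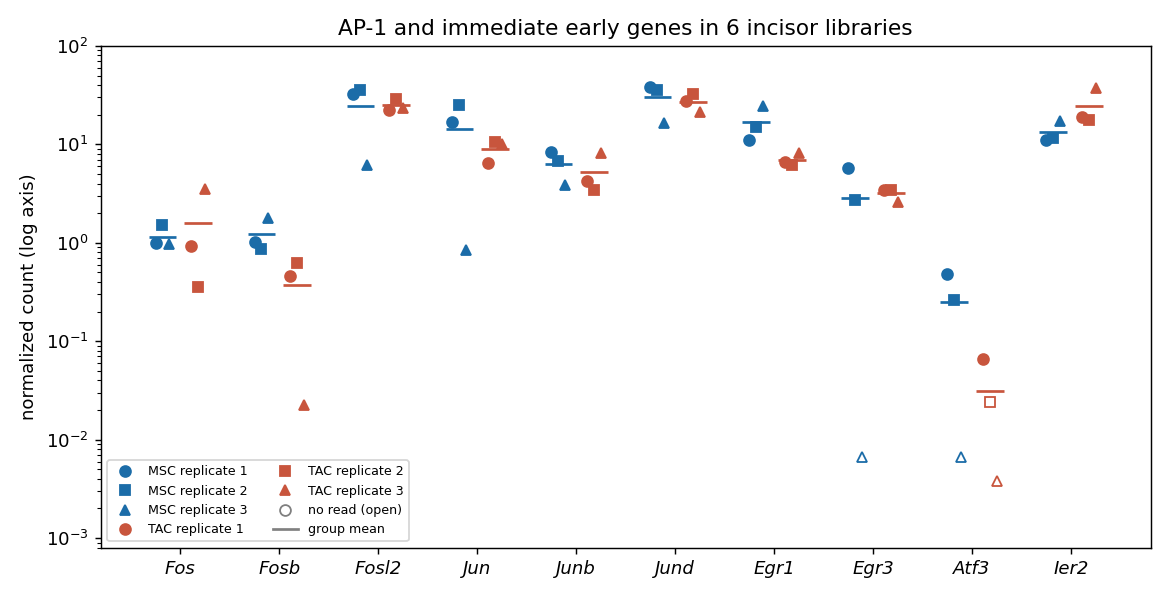
Normalized counts (vertical log axis) of the 10 genes in each of the 6 libraries, with MSC in blue, TAC in red, a shape for each replicate number, open symbols where no read was seen and bars for group means of 3 libraries. Egr1 and Ier2 are the members tested whose groups do not overlap. MSC replicate 3 lies below MSC replicates 1 and 2 for 6 of the 8 tested members, beside 59.2% of all genes tested.

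Levels of different genes were compared only after division by the exon length of each gene. Jund, a JUN protein known for steady rather than induced expression, had the highest median among the members, at 17.9 normalized counts per kilobase over the 6 libraries. It stood at or above the percentile 86.9 of 15487 protein-coding genes in each library. Ier2, a short nuclear protein of uncertain biochemical role, came next at 11.5 per kilobase and at percentiles of 84.2 to 96.3. The order of these genes was the reverse in replicate 3, where Ier2 was 11.4 and 24.3 per kilobase in MSC and TAC and Jund 9.97 and 12.9. Jun (3.21), Fosl2 (2.72), Junb (2.39) and Egr1 (2.13) formed a middle group by median per kilobase. The ranges over libraries of these middle genes overlapped, and Jun alone covered percentiles from 33.8 to 86.0. Egr3 (0.695), Fos (0.418), Fosb (0.120) and Atf3 (0.0208 normalized counts per kilobase) were low. The classical early genes Fos and Fosb thus stood at percentiles of 14.8 to 45.3 and 10.05 to 34.1, and Atf3, a stress-induced bZIP factor, at 5.90 to 13.5 in the 3 libraries where it had a read.

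Taken as shares of the per-kilobase sum of the 6 FOS and JUN genes, Jund held 64.0%, 58.2% and 75.2% in MSC and 71.2%, 70.8% and 54.8% in TAC. Jund was the largest share in every library, and the groups overlapped. Jun held 14.7%, 21.6% and 1.98% in MSC and 8.83%, 11.9% and 13.3% in TAC. Its share was lowest in MSC replicate 3 and highest in MSC replicates 1 and 2, with TAC between. Fos held 0.556% to 6.40%, with the highest share in TAC replicate 3. The summed JUN family was 4.97 to 8.88 times the summed FOS family per kilobase in the 6 libraries.

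**Figure D2:**
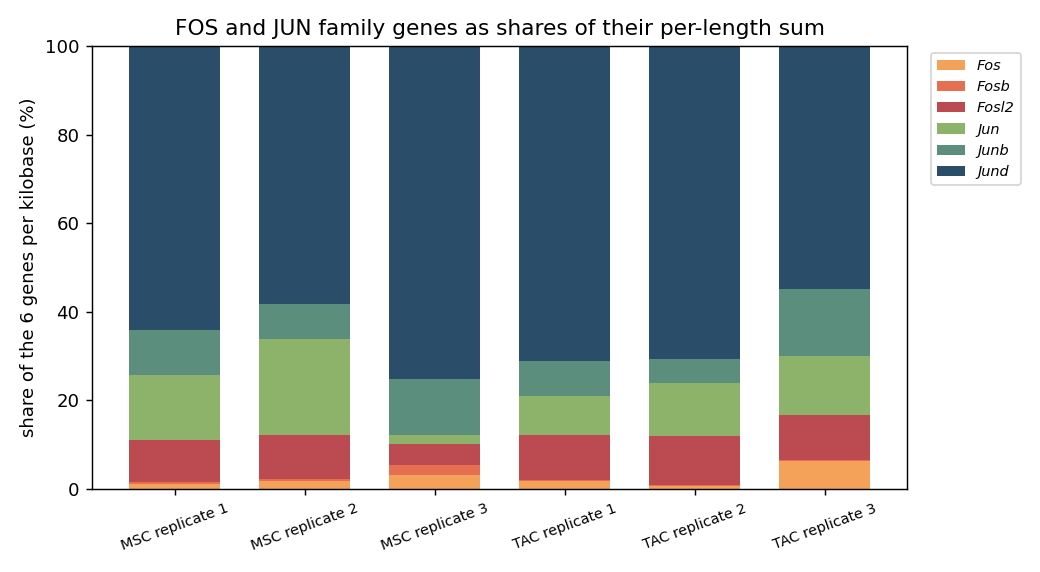
Share (vertical axis, percent) of each FOS and JUN family gene in their summed normalized counts per kilobase, with 1 bar for each library. Jund fills 54.8% to 75.2% of each bar, and the Jun segment falls to 1.98% in MSC replicate 3.

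Within the FOS family, Fos (mm10 chromosome 12, 85473890 to 85477273, plus strand) encodes the prototype AP-1 partner. Its values were 0.986, 1.51 and 0.978 in MSC and 0.920, 0.360 and 3.54 in TAC. TAC held both the lowest and the highest library, so the groups overlapped. MSC averaged 1.16 ± 0.303 and TAC 1.61 ± 1.70 (SD, n = 3 each). The log2 fold change, taken as TAC minus MSC on log2 of the value plus 1, a scale that understates the change of low genes, came to 0.09 with an SE of 0.60 and a limma adjusted p of 0.978. Estimated reads ranged from 14 to 51 in replicates 1 and 2, lowest in TAC replicate 2, and were 146 and 934 in replicate 3 of MSC and TAC.

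Fosb (chromosome 7, 19302696 to 19310051, minus strand), whose splice forms include a stable one known from brain, was 1.013, 0.869 and 1.78 in MSC and 0.460, 0.623 and 0.0227 in TAC. Every MSC library was above every TAC library. The widest gap lay in replicate 3, with 267 estimated reads in MSC (exact 95% Poisson interval 236 to 301) and 5 in TAC (1.62 to 11.7). These intervals cover counting error only. Fosb fell below the mean of 1 required for the main test. In the alternative without a filter its log2 fold change was -0.70 with a limma adjusted p of 0.740.

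Fosl2 (chromosome 5, 32135801 to 32157842, plus strand), which encodes FRA2, a FOS protein active in cartilage and bone, was 32.6, 35.6 and 6.19 in MSC and 22.4, 29.2 and 23.6 in TAC. MSC replicates 1 and 2 were the highest libraries and MSC replicate 3 the lowest, with TAC between. The means were 24.8 ± 16.2 and 25.1 ± 3.61 (SD, n = 3 each), with a log2 fold change of 0.33 (SE 0.63, limma adjusted p 0.902).

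Within the JUN family, Jun (chromosome 4, 95049034 to 95052222, minus strand), the main AP-1 partner of FOS, varied most between libraries. It was 16.8, 25.3 and 0.839 in MSC and 6.50, 10.5 and 9.99 in TAC. MSC replicates 1 and 2 were the highest libraries and MSC replicate 3, with 125 estimated reads, the lowest. MSC was 2.59 and 2.41 times TAC in replicates 1 and 2, while TAC was 11.9 times MSC in replicate 3. Over the 6 libraries the log2 fold change was 0.05 with an SE of 0.97 (limma adjusted p 0.993), an error wider than for any other member tested. The overlapping gene Junos ranged from 0.00379 to 0.898.

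Junb (chromosome 8, 84974484 to 84978718, minus strand), a JUN protein that can restrain proliferation, was 8.45, 6.78 and 3.87 in MSC and 4.23, 3.43 and 8.19 in TAC. MSC was higher in replicates 1 and 2 and TAC in replicate 3, so the pooled groups overlapped. In limma TAC minus MSC came to -0.25 on the log2 scale, with an SE of 0.53 and an adjusted p of 0.914. Prdx2, a peroxidase gene that overlaps Junb on the other strand, had normalized counts of 33.8 to 55.8 in MSC and 75.3 to 128 in TAC. Since the use of strand in counting is not stated, reads of the shared stretch cannot be told apart.

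Jund (chromosome 8, 70698949 to 70700616, plus strand), the steadiest JUN gene by its role in other tissues, measured 38.3, 35.6 and 16.6 in MSC and 27.4, 32.5 and 21.5 in TAC. MSC again held the highest and the lowest libraries. MSC averaged 30.2 ± 11.8 and TAC 27.1 ± 5.48 (SD, n = 3 each), and the log2 difference of -0.08 had an SE of 0.39 and a limma adjusted p of 0.972. Its 95% interval ran from -1.003 to 0.84. Gm11175, antisense to Jund, ranged from 0.0394 to 22.2, and the same limit on strand holds for it.

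Egr1 (chromosome 18, 34859823 to 34864984, plus strand), a zinc finger factor induced through serum response factor, was higher in MSC in every library. It was 11.03, 14.9 and 24.4 in MSC and 6.55, 6.16 and 8.11 in TAC. The groups did not overlap, and MSC exceeded TAC in each pair of the same number, by 1.69, 2.41 and 3.004 times. MSC averaged 16.8 ± 6.87 and TAC 6.94 ± 1.03 (SD, n = 3 each), a ratio of 2.41. The log2 fold change of -1.10 had an SE of 0.42 and a 95% interval from -2.09 to -0.10. Its unadjusted p was 0.0346 and its adjusted p 0.371 in limma across all genes, so it did not pass the adjusted threshold. The unadjusted p was 0.0841 without MSC replicate 2, 0.0993 without TAC replicate 1, 0.107 without TAC replicate 2 and 0.188 with replicates 1 and 2 averaged. With the library set as a term of the fit the adjusted p was 0.0483, and within replicates 1 and 2 alone it was 0.00600.

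Egr3 (chromosome 14, 70077445 to 70080157, plus strand), a related factor that lies downstream of Egr1 in several cell types, was 5.81, 2.69 and 0.00666 in MSC and 3.46, 3.43 and 2.62 in TAC. The value of MSC replicate 3 is that of a gene without a read. TAC replicate 3, with 691 estimated reads, was at least 98.5-fold higher than the level of 3 reads in MSC replicate 3. The TAC libraries were close to each other, with a mean of 3.17 ± 0.474 (SD, n = 3), and lay within the MSC range. In limma the log2 fold change came to 0.50 with an SE of 0.77 and an adjusted p of 0.869.

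Ier2 (chromosome 8, 84661331 to 84662852, minus strand) was the member higher in TAC in every library. It was 11.1, 11.5 and 17.3 in MSC and 19.0, 17.7 and 37.0 in TAC. The groups did not overlap, though MSC replicate 3 lay close to TAC replicate 2. TAC exceeded MSC by 1.71, 1.54 and 2.14 times in the pairs of the same number. MSC averaged 13.3 ± 3.46 and TAC 24.6 ± 10.8 (SD, n = 3 each), and the log2 fold change of 0.79 had an SE of 0.40 and a 95% interval from -0.15 to 1.73. The limma unadjusted p was 0.0890 and the adjusted p 0.503, against an adjusted p of 0.0496 with the library set as a term and 0.00516 within replicates 1 and 2 alone. Only these 2 of 18 alternatives called it.

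Atf3 (chromosome 1, 191170296 to 191218039, minus strand) had 17, 8 and 0 estimated reads in MSC and 2, 0 and 0 in TAC. Reads were seen in the library set of replicates 1 and 2 and in no library of replicate 3, where the floor of 3 reads corresponds to 0.0266 normalized counts in MSC and 0.0152 in TAC. Atf3 fell below the level required for testing, and at this depth no difference can be read from it beyond these counts.

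Across the members, 8 of 10 could be tested and none passed an adjusted p of 0.05 in limma, where 0.422% of the 15391 genes tested did. At an unadjusted p under 0.05 there was 1 member, Egr1, in limma and also 1 in limma voom on estimated reads, which gave no member an adjusted call. Such a p was given to 11.9% of all genes in limma and to 23.2% in limma voom. The groups did not overlap for 2 of the 8 tested members, Egr1 and Ier2, near the 24.5% of all genes. With the library set as a term these same 2 members passed the adjusted threshold, as did 11.8% of all genes. With the replicate number as a block, which is an alternative reading of the design, none of the 8 passed, where 1.49% of all genes did, and the adjusted p was 0.162 for Egr1 and 0.178 for Ier2.

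The library sets gave different pictures of the AP-1 genes. Within replicates 1 and 2, both TAC libraries lay below both MSC libraries for 6 of the 8 tested members, namely Fos, Fosl2, Jun, Junb, Jund and Egr1, and 39.5% of all genes tested showed this. Both TAC libraries lay above both MSC libraries for Ier2, as for 33.4% of all genes. In a fit of replicates 1 and 2 alone, Jun (log2 fold change -1.22, limma adjusted p 0.00369), Junb (-0.83, 0.0178), Fosl2 (-0.40, 0.0359) and Egr1 (-0.91) were lower in TAC and Ier2 (0.65) higher past the adjusted threshold. That made 5 of 8 members called, where 44.2% of all genes were called, and the error of that fit comes from library pairs with Pearson correlations of 0.983 and 0.990 on log2 values across genes.

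In replicate 3 the direction was opposite for 6 of the 8 tested members, namely Fos, Fosl2, Jun, Junb, Jund and Egr3, against 38.8% of all genes. The log2 fold change there was 2.58 for Jun, 1.85 for Egr3, 1.77 for Fosl2, 1.20 for Fos, 0.91 for Junb and 0.35 for Jund. A group had 1 library in replicate 3, so these values have no replicate check. An interaction term for the library sets was past the adjusted threshold in limma for these 6 members, from 0.000204 for Fosl2 to 0.0214 for Jund, and for 57.2% of all genes. Its error is the spread between replicates 1 and 2 only, so it sets single libraries of replicate 3 against that spread and shows nothing particular to the members. With a pseudocount of 10 or without the variance trend 5 members passed, and with quantile normalization 4. For Egr1 and Ier2 the difference had adjusted p-values of 0.155 and 0.134. MSC replicate 3 lay below both other MSC libraries for 6 of the 8 tested members, beside 59.2% of all genes, and for Fos the gap was 0.978 against 0.986.

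**Figure D3:**
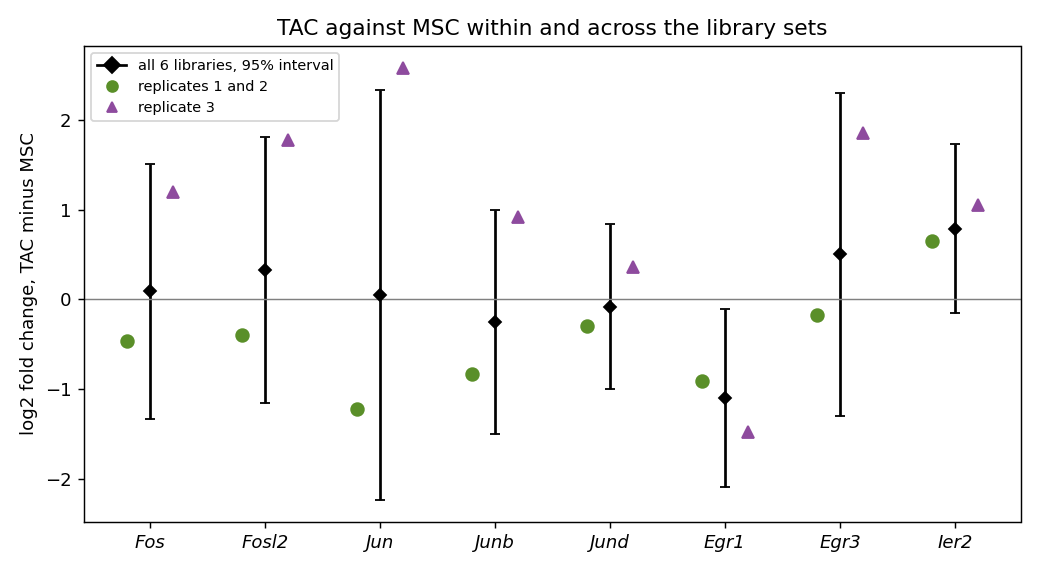
Log2 fold change, TAC minus MSC (vertical axis), of the 8 tested genes over all 6 libraries (black, with the 95% interval of the limma fit), within replicates 1 and 2 (green) and in replicate 3 (purple). The green and purple points lie on opposite sides of 0 for 6 genes and on the same side for Egr1 and Ier2.

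Egr1 and Ier2 can be set beside each other within each library. The ratio of the Ier2 to the Egr1 normalized count was 1.0097, 0.772 and 0.710 in MSC and 2.91, 2.87 and 4.56 in TAC. Every TAC ratio was above every MSC ratio, which follows from the directions of both genes and adds no evidence to them. The ratio was chosen after the values of both genes were seen, so no test is given, and since gene length is not divided out it compares libraries and not the genes.

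**Figure D4:**
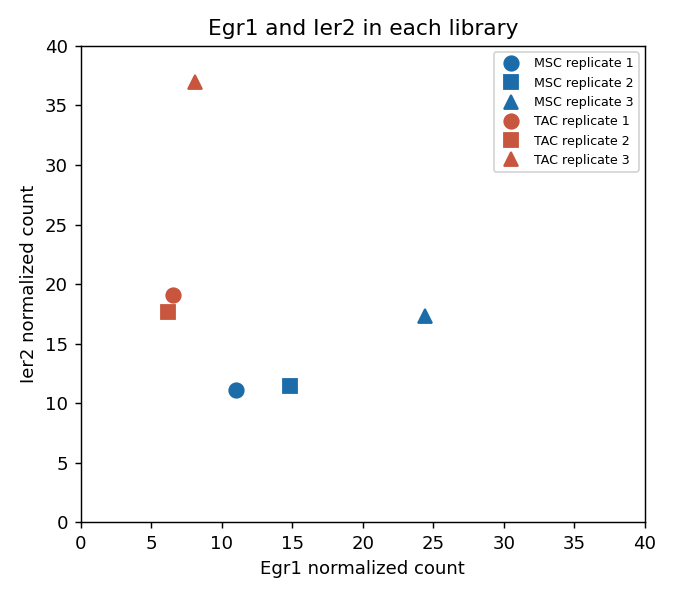
Normalized counts of Egr1 (horizontal axis) and Ier2 (vertical axis), with 1 point for each library, MSC in blue, TAC in red and a shape for each replicate number. The TAC libraries lie at 6.16 to 8.11 for Egr1 and 17.7 to 37.0 for Ier2, and the MSC libraries at 11.03 to 24.4 and 11.1 to 17.3.

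Several members varied together across the 6 libraries. On log2 values the Pearson correlation was 0.97 for Jun with Fosl2, 0.92 for Fosl2 with Egr3 and 0.87 for Jun with Jund, and it was 0.16 for Fos with Jun. Over the 5 libraries without MSC replicate 3, where Egr3 had no read, these values were 0.93, 0.27, 0.65 and 0.079. The libraries share the split into sets and a wide range of depth, so these correlations describe the 6 libraries and carry no p. Among 8180 genes with a mean of at least 10, the genes most like Fos were Cdip1 (Pearson r 0.981), Zfp160 (0.979), Chpf (0.978), Prr3 (0.970) and Hsf1 (0.966), again over 6 libraries. They were picked as the highest of 8180 values. Each of them, like Fos, was highest in TAC replicate 3, so the likeness leans on that library.

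Other genes of the same pathways were described from lists of known members. Of 13 other bZIP genes of AP-1 type, 11 were tested, 4 with a higher and 7 with a lower mean log2 value in TAC. None passed the adjusted threshold in limma, and 2 had an unadjusted p under 0.05, against 11.9% of all genes. Their median log2 fold change was -0.04, beside 0.03 over all genes. The extremes were Batf, a partner of JUN in immune cells, at 1.87 (limma adjusted p 0.352) and the small MAF protein gene Maff at -1.59 (0.345). Batf was 2.53, 2.67 and 0.00666 in MSC and 5.04, 6.64 and 12.9 in TAC, and Maff was 3.57, 2.75 and 6.20 in MSC and 1.40, 0.887 and 0.00379 in TAC. Both had groups that did not overlap, and both had 1 library at the value of no read, MSC replicate 3 for Batf and TAC replicate 3 for Maff.

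Other early transcription factors had a median log2 fold change of -1.08 over 15 tested genes, beside 0.03 over all genes. Of these, 12 were lower and 3 higher in TAC, where 7472 of all 15391 genes were lower. Groups did not overlap for 9, against 24.5% of all genes, 6 had an unadjusted p under 0.05, all lower in TAC, against 11.9%, and none passed the adjusted threshold. Klf2, a factor induced by fluid flow in endothelium, was 21.9, 21.9 and 34.9 in MSC and 4.36, 3.36 and 9.46 in TAC (log2 fold change -2.09, SE 0.46, limma adjusted p 0.141). Cebpb, a factor of inflammation and adipocyte formation, was 15.5, 13.4 and 11.1 in MSC and 4.35, 3.16 and 1.11 in TAC (-1.98, adjusted p 0.188). Hes1, a target of Notch signaling, lay at the other end at 0.90 (adjusted p 0.552). The median was -0.82 within replicates 1 and 2 and -1.52 in replicate 3, beside -0.43 and 1.13 for the 8 tested members.

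The early effectors, which include phosphatases, growth arrest and matrix proteins, held the 1 gene of these lists past the adjusted threshold. Ctgf, a secreted matrix protein induced by stretch and TGF-beta, was 47.8, 47.5 and 61.3 in MSC and 10.3, 7.93 and 5.49 in TAC. All MSC libraries were above all TAC libraries, with a log2 fold change of -2.60 (SE 0.34, limma adjusted p 0.0389). The call was lost without MSC replicate 1 (adjusted p 0.241), MSC replicate 2 (0.238), TAC replicate 1 (0.157), TAC replicate 2 (0.1995) or TAC replicate 3 (0.0592). The same held without the variance trend (0.0733) and with replicates 1 and 2 averaged as 1 sample (0.464), and its direction was the same in all 18 alternatives. Of 31 effectors tested, 19 were lower and 12 higher in TAC, 13 had groups that did not overlap, against 24.5% of all genes, and the median log2 fold change was -0.25. Errfi1, an inhibitor of the EGF receptor, was 24.0, 29.7 and 77.4 in MSC and 7.01, 5.95 and 8.20 in TAC (-2.29, adjusted p 0.126), and Dusp6, an ERK phosphatase, was 8.63, 10.2 and 3.04 in MSC and 23.9, 27.98 and 31.1 in TAC (1.91, adjusted p 0.170).

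The kinases and factors upstream of these genes showed no common direction. Of 26 genes, which include the ERK, JNK and p38 kinases, Srf and its partners and Creb1, 16 were higher and 10 lower in TAC. None passed the adjusted threshold in limma, and the median log2 fold change was 0.07. An unadjusted p under 0.05 was given to 1 of them, against 11.9% of all genes. Elk1, a partner of serum response factor, was at -1.23 (limma adjusted p 0.472), Mkl2, an actin-regulated partner, at -1.22 (0.373) and Creb1, which binds the cyclic AMP response element, at 0.99 (0.660). Of 10 known AP-1 targets tested, 6 were higher and 4 lower in TAC, with a median of 0.23. In limma none was past the adjusted threshold and 2 were at an unadjusted p under 0.05, against 11.9% of all genes. Mmp9, a matrix protease, was 16.7, 18.1 and 21.3 in MSC and 4.99, 4.32 and 1.05 in TAC (-2.28, adjusted p 0.156), and Ccnd1, the G1 cyclin D1, was 65.4, 65.6 and 60.5 in MSC and 102, 102 and 124 in TAC (0.76, adjusted p 0.279). Both target genes had groups that did not overlap, in opposite directions.

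**Figure D5:**
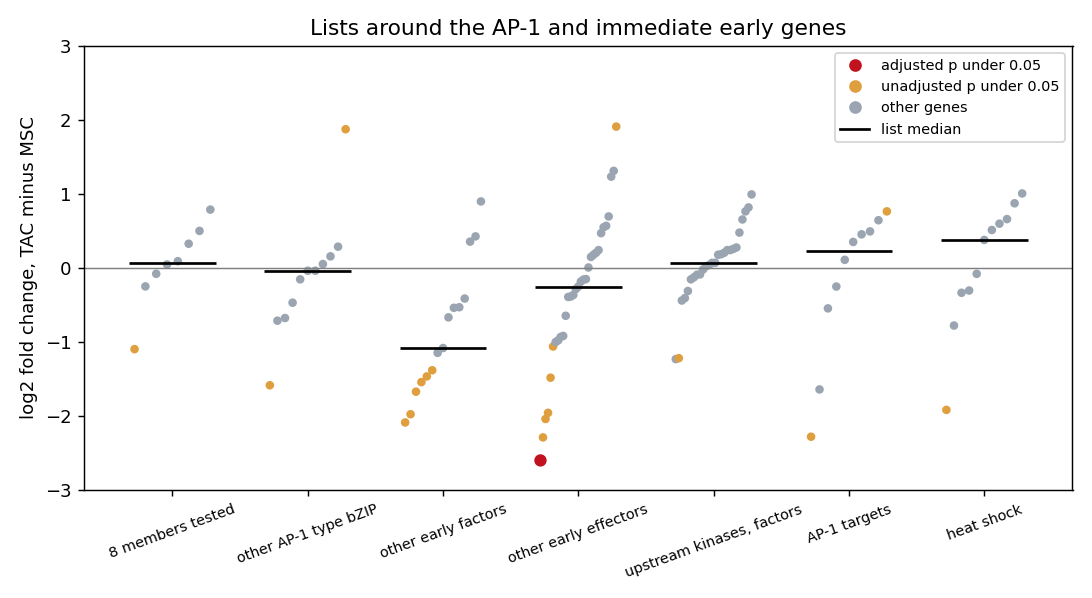
Log2 fold change, TAC minus MSC (vertical axis), of each tested gene in 7 gene lists (horizontal axis), with bars for list medians, red for an adjusted p under 0.05 and orange for an unadjusted p under 0.05 in limma. The other early factors have a median of -1.08 and the 8 tested members one of 0.07, and Ctgf is the 1 gene past the adjusted threshold.

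Heat shock genes, which respond to stress of the tissue, were counted beside the members. Of 11 tested, 6 were higher and 5 lower in TAC with a median of 0.38. In limma none was past the adjusted threshold and 1 was at an unadjusted p under 0.05, against 11.9% of all genes. In limma voom on estimated reads no gene of these lists passed the adjusted threshold except Ctgf. Hsp90aa1 had a log2 fold change of 1.01 (limma adjusted p 0.509, and 0.0442 with the replicate block), and Hspb1 one of -1.92 (adjusted p 0.188). Their part in the levels of the members was not tested.

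Markers of other cell types differed between the groups and between the library sets. The 9 dental mesenchyme markers summed to 2714 to 10644 normalized counts in MSC and 8648 to 11963 in TAC. Most of that sum was Col1a1, at 9568, 9609 and 1554 in MSC and 11167, 11125 and 8030 in TAC. By log2 fold change 7 of the 9 were lower and 2 higher in TAC, none past the adjusted threshold. Barx1 had no read in a library. Smooth muscle and pericyte markers summed to 615 to 1424 in MSC and 59.3 to 66.7 in TAC, with Cnn1 without a read in a library. All 6 of 6 were lower in TAC and 4 were past the adjusted threshold, against 0.422% of all genes. Schwann cell markers summed to 20.2 to 43.2 in MSC and 6.09 to 19.2 in TAC, with 4 of 4 tested lower in TAC, and Sox10 and S100b each had no read in a library. Endothelial markers summed to 164 to 240 in MSC and 96.0 to 108 in TAC, with 5 of 6 lower in TAC. The smooth muscle, Schwann and endothelial sums were higher in every MSC library than in any TAC library, as Egr1 was.

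Of the epithelial markers, Epcam was 1.23, 0.927 and 0.00666 in MSC and 2.26, 4.03 and 6.68 in TAC, and Cdh1 was 3.65, 4.06 and 0.00666 in MSC and 6.72, 6.31 and 14.3 in TAC. Both had no read in MSC replicate 3 and were higher in every TAC library than in any MSC library. Odontoblast markers summed to 484 to 5022 in MSC and 3251 to 4517 in TAC. The 4 markers of cycling cells summed to 84.2 to 189 in MSC and 242 to 905 in TAC. The dental mesenchyme, odontoblast and cycling sums were each lowest in MSC replicate 3, but single markers differed. Of the mesenchyme markers, Msx1, Col1a1, Lhx6 and Barx1 were lowest there, while Pax9, Prrx1 and Vim were highest there. Of the cycling markers, Mki67 and Top2a were lowest there, and Ccnb1 was above MSC replicates 1 and 2. Jun, Fosl2, Jund and Egr3 were also lowest in MSC replicate 3, and Egr1 and Fosb were highest there. Macrophage markers summed to 58.8 to 117 and 34.2 to 92.9, with Adgre1 without a read in a library. The part of these cell types in the values of the members and of the other listed early genes was not tested. In bulk tissue fewer cells of a type and less RNA per cell cannot be told apart.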

How the data were processed

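RNA was measured in 3 MSC and 3 TAC libraries, grouped by genotype label. According to their methods the authors trimmed reads and aligned them to mm10 with TopHat 2.0.8, and the submitters' processing notes also name CASAVA 1.8.2 and Partek, without their roles. The deposited values, a signal the authors normalized per library, equalled an estimated read number plus 1, times a step for each library, and were not divided by gene length, although the methods name RPKM. Estimated reads were recovered by dividing by the lowest value and subtracting 1, and were partly fractional, so no count model was the main test. Each listed gene reached about 10 estimated reads in some library, and genes under that level are not analysed here. How reads were counted, and whether strand was used, is not given in the sources used here.

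limma 3.58.1 in R 4.3.3 was fitted to log2(value + 1) of 15391 genes, those averaging at least 1 over the 6 libraries, two-sided, with a variance trend and Benjamini-Hochberg adjustment over all of them at 0.05. A run of the fit on simulated data held no split between the library sets, so it does not vouch for the fit where the sets differ. Lengths are GENCODE M21 exon unions, and 9 of 10 members had the same coordinates there after 1 was taken from the deposited end. Same-numbered libraries deviated together (correlations 0.477, 0.465 and 0.517 across genes), but MSC replicate 1 with TAC replicate 2 gave 0.462, so the pairing shows the split of replicate 3 from replicates 1 and 2. Replicates 1 and 2 differed by more than sampling noise in both groups, which repeat preparations of 1 sample could also show, and all 6 libraries were kept as the labels give them. The labels do not say that replicates came from separate animals. The study's methods give 3 mice a group. Members and lists were chosen with earlier results of these data known. All members are named, and of each list genes among the 3 largest changes in either direction, those past the adjusted threshold, and the 5 genes most like Fos. The sum of the epithelial markers is not reported here.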

Additional observations from a re-analysis of the deposited data

Results flagged for a closer look

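The TAC against MSC difference was opposite in the library sets for 6 members, which a limma interaction term adjusted over all genes also called. Each group has 1 library in replicate 3, so the error of that term is the spread between replicates 1 and 2 alone and says nothing of how far another library like replicate 3 would vary. It called 57.2% of all genes, and nothing particular to the members is read from it. On the log2 scale the difference in replicate 3 minus that in replicates 1 and 2 was 3.80 for Jun (adjusted p 0.000271), 2.17 for Fosl2 (0.000204), 2.02 for Egr3 (0.0128), 1.75 for Junb (0.00423), 1.67 for Fos (0.0162) and 0.65 for Jund (0.0214). In each case TAC was below MSC in replicates 1 and 2 on average and above it in replicate 3. The cause was not tested.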

How the results depend on the processing

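Over all genes, the count past the adjusted threshold was 65, and 38 with a pseudocount of 0.1 (chosen after seeing the data), 114 with quantile normalization, 29 without the variance trend, 229 with the replicate block, 1814 with the library set as a term, 6796 in replicates 1 and 2 only, 10 with replicates 1 and 2 averaged and 23 in limma voom on estimated reads. Leaving out 1 library gave 0 to 292, the highest without MSC replicate 3, 36 without TAC replicate 3 and 0 when any other library was left out. At an unadjusted p under 0.05, leaving out 1 library gave 1028 to 3108 of all genes against 1824, and 0 to 3 members against 1. The library set difference was called for 8796 genes and for 5392 at a mean of at least 10, where fewer genes were tested. For the members that count was 6, and 5 with a pseudocount of 10 or without the variance trend, 4 with quantile normalization and 3 at a mean of at least 10, where Fos, Junb and Egr3 were not tested.

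Of the 8 tested members 0 passed, and 0 under every alternative except the library set term (2) and replicates 1 and 2 only (5). Leaving out 1 library gave 0 to 0. The replicate block changed no call of a member. Among other named genes it changed those of Hsp90aa1 and Mki67 (adjusted p 0.0442 each, against 0.509 and 0.361). Egr1 stayed lower in TAC (-1.35 to -0.63) and Ier2 higher (0.46 to 0.98) in all 18 alternatives, with adjusted p-values of 0.00600 to 1.00 and 0.00516 to 1.00. Other log2 fold changes turned sign. In replicates 1 and 2 only they were -0.47 for Fos, -0.40 for Fosl2, -1.22 for Jun, -0.17 for Egr3 and -0.093 for Klf6. With quantile normalization Fos was -0.022 and Jun -0.36, with a pseudocount of 0.1 Fos was -0.047, and with one of 10 Jun was -0.20. With replicates 1 and 2 averaged Junb was 0.039 and Jund 0.030, and in limma voom Junb was 0.60 and Hspa1b 0.38. Without turning sign, limma voom gave 5.12 for Egr3, 2.15 for Jun and 1.26 for Fos, against 0.50, 0.05 and 0.09, and called none of them. Leaving out 1 library gave -0.41 to 0.46 for Fos, -0.44 to 0.74 for Fosl2, -1.14 to 0.78 for Jun, -0.45 to 0.13 for Jund, -0.27 to 1.11 for Egr3, -0.23 to 0.79 for Klf6 and -0.36 to 1.79 for Map2k6. The causes of these shifts were not tested.

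Fos and Fosb in replicates 1 and 2, Fosb in TAC replicate 3 and Atf3 in every library rested on few reads. Fosl2, Jun and Egr3 turned sign without MSC replicate 3, and Jun also without TAC replicate 2 or TAC replicate 3.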
